A study of Mus musculus with 14 samples.

Results

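The genes described here are 32 genes of the unfolded protein response, the programme that cells use to restore protein folding in the endoplasmic reticulum (ER). They were picked by symbol: a probe set counted when the platform annotation gave it a single gene symbol and that symbol was one of the 32. For each gene the probe set with the highest mean signal over all 14 arrays was used, and all 32 had a value, of 18194 genes on the array that did. Levels are given as log2(intensity + 16), where the offset of 16 damps noise in dim probe sets.

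The arrays measured lung RNA of BALB/c mice, whose age the labels do not give. A first group of 4 samples came from mice with a tumour of 4T1, breast carcinoma cells that the labels call metastatic, and a second of 5 samples from mice with a tumour of 67NR, which the labels call non-metastatic. The 5 normal samples came from mice given PBS and no cells. Tumour cells were placed in the fourth mammary fat pad, and lungs were taken at 6 days or at a tumour volume of about 50 mm3, after perfusion had cleared their blood. Since 1 line stands for each tumour class, its ability to spread and its other traits cannot be told apart, and neither time of day nor batch is given. Whether every numbered sample is a separate mouse is not stated, so the p-values describe the spread among these samples, which may be technical.

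Median intensities of the arrays lay between 113.2 and 116.1, and no array duplicated another, with root mean square log2 differences within groups of 0.169 to 0.280. Gapdh control probes, which read RNA integrity, gave 3' over 5' ratios of -0.58 to -0.36 on the log2 scale. Defining genes of lung tissue (Sftpc, Sftpa1, Scgb1a1, Ager and Cldn5) had mean log2 levels of 12.27 to 13.87 in every group.

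Misfolded protein in the ER lumen is sensed by 3 membrane proteins. IRE1 (gene Ern1) splices the Xbp1 messenger, PERK (gene Eif2ak3) slows translation while favouring that of Atf4, and ATF6 is cut to release a transcription factor. The spliced Xbp1, Atf4 and Atf6 products then switch on genes for ER chaperones, disulfide isomerases and the degradation of misfolded proteins. Secretory cells such as alveolar type 2 cells, club cells and plasma cells use the programme in health. An array of whole lung reads the amount of RNA and not splicing, cleavage or translation, so it bears on the targets of the programme more than on its sensors. In whole tissue, fewer cells of a type and less RNA per cell cannot be told apart.

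The element through which ATF6 and XBP1 act on chaperone genes can be read directly in their promoters. RefSeq promoter windows (GRCm38.p6, 250 bases before to 50 after an annotated start) were matched by symbol for 28 of the 32 genes. The ER stress element, CCAAT and CCACG with 9 bases of any kind between them, was searched on both strands. It was found in 9 of the 28 genes (32.1%), against 37 of 27025 genes with a window (0.137%). The matches are shown because these genes include Hspa5, Hsp90b1 and Pdia6, whose levels are described further on. The matched letters are in capitals, with 8 flanking bases on each side, and each line reads 5′ to 3′ on the strand that carries CCAAT first.
Hspa5: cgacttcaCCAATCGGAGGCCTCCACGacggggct
Hsp90b1 distal: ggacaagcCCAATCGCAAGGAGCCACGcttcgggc
Hsp90b1 proximal: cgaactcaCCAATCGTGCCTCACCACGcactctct
Pdia6: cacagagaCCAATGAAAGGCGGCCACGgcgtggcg
Dnajc3: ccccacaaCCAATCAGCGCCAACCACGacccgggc
Creld2: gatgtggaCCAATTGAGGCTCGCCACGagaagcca
Calr: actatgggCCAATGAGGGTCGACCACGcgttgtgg
Canx: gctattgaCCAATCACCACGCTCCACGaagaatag
Syvn1: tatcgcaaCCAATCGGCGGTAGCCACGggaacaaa
Derl3: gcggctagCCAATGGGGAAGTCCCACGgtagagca

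These stretches lie before the annotated starts of the genes. They are chr2:34772017-34772051 (plus strand) for Hspa5, chr10:86705630-86705664 (minus) and chr10:86705525-86705559 (plus) for the distal and proximal sites of Hsp90b1, and chr12:17266483-17266517 (plus) for Pdia6. Those of the others are chr14:118937819-118937853 (plus) for Dnajc3, chr15:88819512-88819546 (minus) for Creld2, chr8:84847067-84847101 (plus) for Calr, chr11:50325792-50325826 (minus) for Canx, chr19:6046524-6046558 (plus) for Syvn1 and chr10:75893234-75893268 (minus) for Derl3. Counted from the first transcribed base, the site of Syvn1 was nearest to its start (-44 to -26), and that of Hspa5 spanned -65 to -47. The gene Hsp90b1, for the ER form of HSP90, held 2 sites in opposite orientations, at -212 to -194 and at -107 to -89. Its 250 bases before the start (chr10:86705445-86705694, minus strand) and those of Hspa5, the gene for the HSP70 chaperone BiP (chr2:34771840-34772089, plus strand), show the spacing of the sites, which are in capitals.
Hsp90b1: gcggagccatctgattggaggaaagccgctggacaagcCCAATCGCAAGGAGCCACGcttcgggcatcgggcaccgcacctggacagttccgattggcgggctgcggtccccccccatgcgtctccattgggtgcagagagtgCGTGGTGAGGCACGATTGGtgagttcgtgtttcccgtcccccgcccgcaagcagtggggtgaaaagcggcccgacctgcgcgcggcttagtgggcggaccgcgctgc
Hspa5: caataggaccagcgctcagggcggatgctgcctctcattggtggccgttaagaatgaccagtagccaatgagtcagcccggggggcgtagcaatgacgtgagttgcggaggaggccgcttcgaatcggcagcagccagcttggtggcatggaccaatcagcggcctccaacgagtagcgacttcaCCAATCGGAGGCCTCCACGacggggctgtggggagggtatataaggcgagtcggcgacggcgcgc

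Another form of the element, ATTGG and CCACG with 1 base between them, was found in 2 of the 28 genes, Herpud1 (chr8:94386369-94386395, plus strand) and Dnajb11 (chr16:22857844-22857870, plus strand), and in 12 of all 27025 genes (0.0444%). The composite site bound by ATF4 with its partners, searched as TGATGNAAN, was found in 4 of the 28, Chac1 (chr2:119351040-119351064, minus), Asns (chr6:7693216-7693240, minus), Trib3 (chr2:152344031-152344055, plus) and Herpud1 (chr8:94386308-94386332, minus), and in 4.5% of all genes. Matches of different motifs overlapped in 0 cases among the 16 matches in these genes. These sites are shown to set the PERK and ATF4 branch beside the chaperones, with Herpud1 carrying 1 of each kind. The ATF4 match is short and was in 14.3% of the 28 genes. Neither Ppp1r15a, also a target of PERK and ATF4, nor Ddit3 held it.
Herpud1 ER stress element 2: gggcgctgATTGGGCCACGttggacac
Dnajb11 ER stress element 2: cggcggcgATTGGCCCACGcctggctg
Chac1 ATF4 site: ggcaggagTGATGCAACggcaggga
Asns ATF4 site: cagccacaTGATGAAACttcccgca
Trib3 ATF4 site: cgcccggcTGATGTAAAcctgagct
Herpud1 ATF4 site: gtgcgggcTGATGCAACccgccgtg

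Each comparison was fitted with limma over 10916 genes, those in the upper 60% of mean level, with p-values adjusted over all of them by the Benjamini-Hochberg method. All 32 genes passed this filter, and all 32 lay above its limit of 7.35 in the mean of every group. Genes with an adjusted p under 0.05 were counted as changed.

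None of the 32 genes passed the test in 67NR lungs, where Manf, Creld2, ER chaperones and disulfide isomerases had positive log2 differences from normal lungs of up to 0.29. By limma 0 of 32 passed, as did 0% of all genes tested, and the smallest adjusted p of a member was 0.228. At an unadjusted p under 0.05, 6 were higher (Pdia3, Hsp90b1, Hyou1, Sdf2l1, Pdia4 and Pdia6), where 4.62% of all genes were, and 0 were lower, where 4.52% were. Differences from normal lungs were positive for 24 genes and negative for 8, with a median of 0.080 against -0.0010 over all genes tested, 49.6% of which had positive values. They ranged from -0.28 for Herpud1 to 0.29 for Manf.

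**Figure D1:**
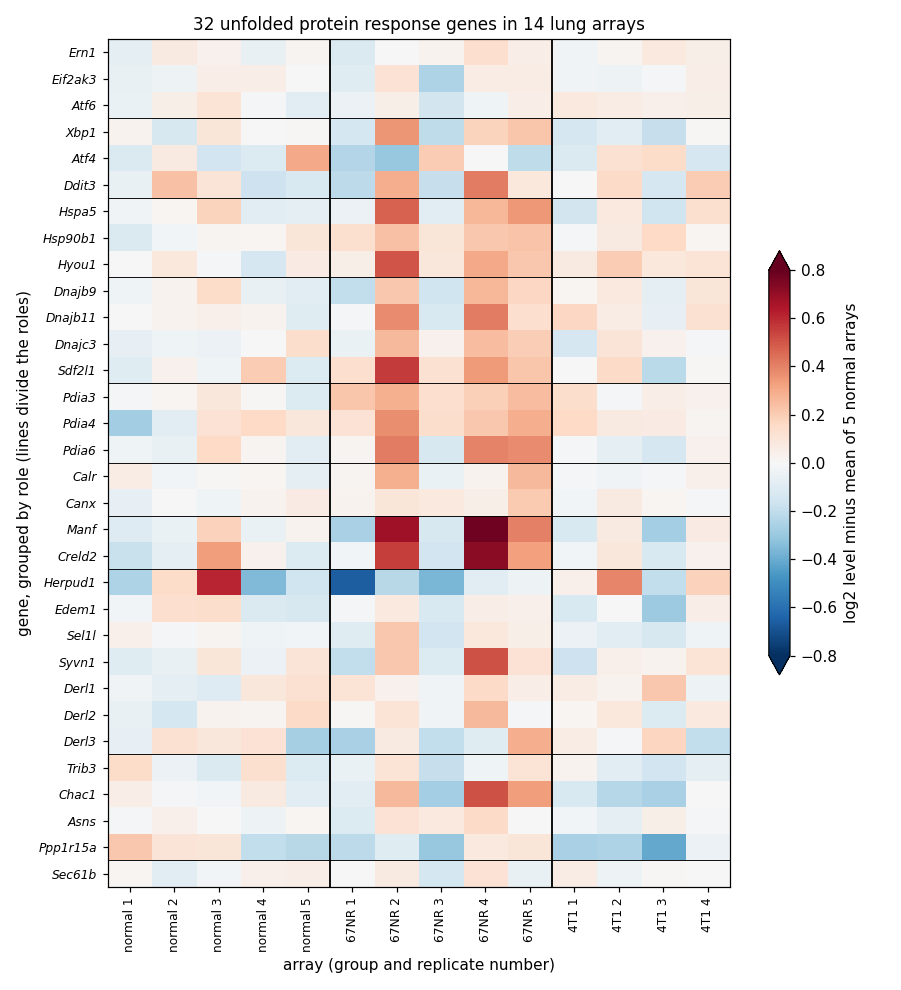
Log2 level of each of the 32 genes (rows, grouped by role and divided by lines) in each of the 14 arrays (columns), shown as the difference from the mean of the 5 normal arrays. Red is higher and blue lower, and values beyond the ends of the scale take the end colour. Red cells gather in 67NR replicates 2, 4 and 5 and in the rows of chaperones, isomerases, Manf and Creld2, while most rows of the 4T1 arrays are pale.

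Pdia3, an isomerase that forms disulfide bonds in glycoproteins, had log2 levels of 11.94, 12.002, 11.85, 11.91 and 11.96 in 67NR lungs. In normal lungs its levels were 11.71, 11.73, 11.81, 11.73 and 11.61, and in 4T1 lungs they were 11.86, 11.70, 11.77 and 11.75. All 5 67NR arrays lay above every normal array, which was so for this gene alone among the 32, and for 0.852% of all genes. None of the 32 lay wholly below, as 0.797% of all genes did. The 67NR mean was 0.22 above normal (1.16-fold, SE 0.046, 95% interval 0.12 to 0.32, limma adjusted p = 0.228). The related isomerases Pdia4 and Pdia6 had differences of 0.23 (SE 0.078) and 0.22 (SE 0.098), and 0 of the 3 passed.

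Pdia6 differed from Pdia3 in how its 67NR arrays fell. Its 67NR levels were 10.71, 11.10, 10.56, 11.09 and 11.07, against 10.65, 10.63, 10.85, 10.71 and 10.60 in normal lungs and 10.68, 10.62, 10.55 and 10.72 in 4T1 lungs. Replicates 2, 4 and 5 of 67NR lay above all other arrays, while replicates 1 and 3 lay within the normal range or under it.

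Among the HSP70 and HSP90 chaperones, Hsp90b1 had levels of 12.95, 13.06, 12.93, 13.04 and 13.05 in 67NR lungs. Its levels were 12.71, 12.80, 12.85, 12.84 and 12.93 in normal lungs and 12.81, 12.90, 12.99 and 12.84 in 4T1 lungs. The 67NR arrays met the normal group at 1 array, 67NR replicate 3 with normal replicate 5, and overlapped the 4T1 group through 4T1 replicate 3. The mean difference from normal was 0.18 (1.13-fold, SE 0.050, limma adjusted p = 0.300). Hyou1, an HSP70 relative that acts with BiP, had levels of 10.27, 10.73, 10.31, 10.52 and 10.44 in 67NR lungs, 10.23, 10.31, 10.21, 10.09 and 10.29 in normal lungs and 10.30, 10.43, 10.31 and 10.33 in 4T1 lungs. Its groups overlapped, with 67NR replicate 2 the highest of all arrays and a mean difference of 0.23 (SE 0.076, adjusted p = 0.372). Hspa5 had a difference of 0.19 (SE 0.10, adjusted p = 0.617), with 67NR means of 12.60 ± 0.24 (SD, n = 5) against 12.41 ± 0.11 (SD, n = 5).

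The J proteins and cofactors, which hand substrates to BiP, had 4 positive differences of 4. Sdf2l1, a lumenal partner of the J protein Dnajb11, had levels of 8.17, 8.60, 8.16, 8.38 and 8.26 in 67NR lungs. Its levels were 7.94, 8.07, 8.01, 8.24 and 7.93 in normal lungs and 8.04, 8.19, 7.82 and 8.05 in 4T1 lungs. The 67NR group was higher by 0.28 on average (1.21-fold, SE 0.092, limma adjusted p = 0.372) and overlapped the normal group through normal replicate 4. Dnajb11 itself, Dnajc3, which also restrains PERK, and Dnajb9 had differences of 0.16, 0.14 and 0.059. The lectin chaperones Calr and Canx, which hold glycoproteins until they fold, had differences of 0.11 and 0.093.

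Manf and Creld2 encode small proteins that cells secrete under ER stress, and they had the largest positive differences of the 32 in this comparison. Manf stood at 10.72, 11.66, 10.85, 11.76 and 11.38 in 67NR lungs, which is 11.27 ± 0.47 (SD, n = 5), against 10.98 ± 0.11 (SD, n = 5) in normal lungs. Creld2 stood at 9.34, 9.92, 9.21, 10.09 and 9.70, against 9.37 ± 0.20 (SD, n = 5). In 67NR replicates 1 and 3 Manf lay below every normal array and Creld2 within the normal range. In replicates 2, 4 and 5 both lay at the level of the highest normal array or above it. The mean differences of 0.29 for each had standard errors of 0.17 and 0.15 (limma adjusted p = 0.650 and 0.599).

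The sensors and transcription factors had smaller differences. Ern1, Eif2ak3 and Atf6 had differences of 0.018, -0.023 and -0.025 between 67NR and normal lungs. Xbp1, whose probe sets do not tell spliced from unspliced messenger, had one of 0.082, and Ddit3, the transcription factor CHOP of prolonged stress, one of 0.078. Atf4, which is controlled mainly at translation, had one of -0.11. The highest limma p of these 6, adjusted over all genes, was 0.937, and the lowest was 0.825.

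Genes of ER-associated degradation were divided. Herpud1, a membrane scaffold of the degradation complex, had the most negative difference of all 32, at -0.28 (SE 0.17, limma adjusted p = 0.678), with levels of 11.12, 11.56, 11.41, 11.69 and 11.74 in 67NR lungs and 11.53, 11.93, 12.39, 11.43 and 11.62 in normal lungs. The groups overlapped widely, and normal replicate 3 was the highest of the 14 arrays. The ubiquitin ligase Syvn1 had a difference of 0.11, the channel proteins Derl1, Derl2 and Derl3 had 0.064, 0.066 and -0.038, and Sel1l and the mannosidase-like Edem1 had 0.021 and 0.0093. Sec61b, a subunit of the channel through which proteins enter the ER, had a difference of -0.0018.

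Targets of PERK and ATF4 did not share a direction in 67NR lungs. Chac1, which degrades glutathione, had a difference of 0.15 and Asns, asparagine synthetase, one of 0.047. Trib3, a pseudokinase, had one of -0.011 and Ppp1r15a, the phosphatase subunit GADD34 that ends the PERK signal, one of -0.086.

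Genes with and without the promoter element also differ in role, and the element ran only partly alongside the size of these differences. The 9 genes with the ER stress element had 8 positive and 1 negative difference between 67NR and normal lungs and a median of 0.14, whereas the 19 genes with a window and without it had 13 positive and 6 negative and a median of 0.047. Outside the 32 genes the element was found in 28 others, of which 6 were tested. Of these 6, 3 had positive and 3 negative differences, with a median of -0.010. Pdia3, Pdia4 and Sdf2l1, with differences of 0.22, 0.23 and 0.28, held no match in their windows. At an unadjusted limma p under 0.05, 2 of the 9 and 3 of the 19 were higher, where 4.62% of all genes were. The 19 without the element include sensors, targets of PERK and ATF4, and Herpud1 and Dnajb11, which carry the other form of it. Manf, Hyou1, Atf6 and Derl1 had no window and are in neither count. These are counts without a test.

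**Figure D2:**
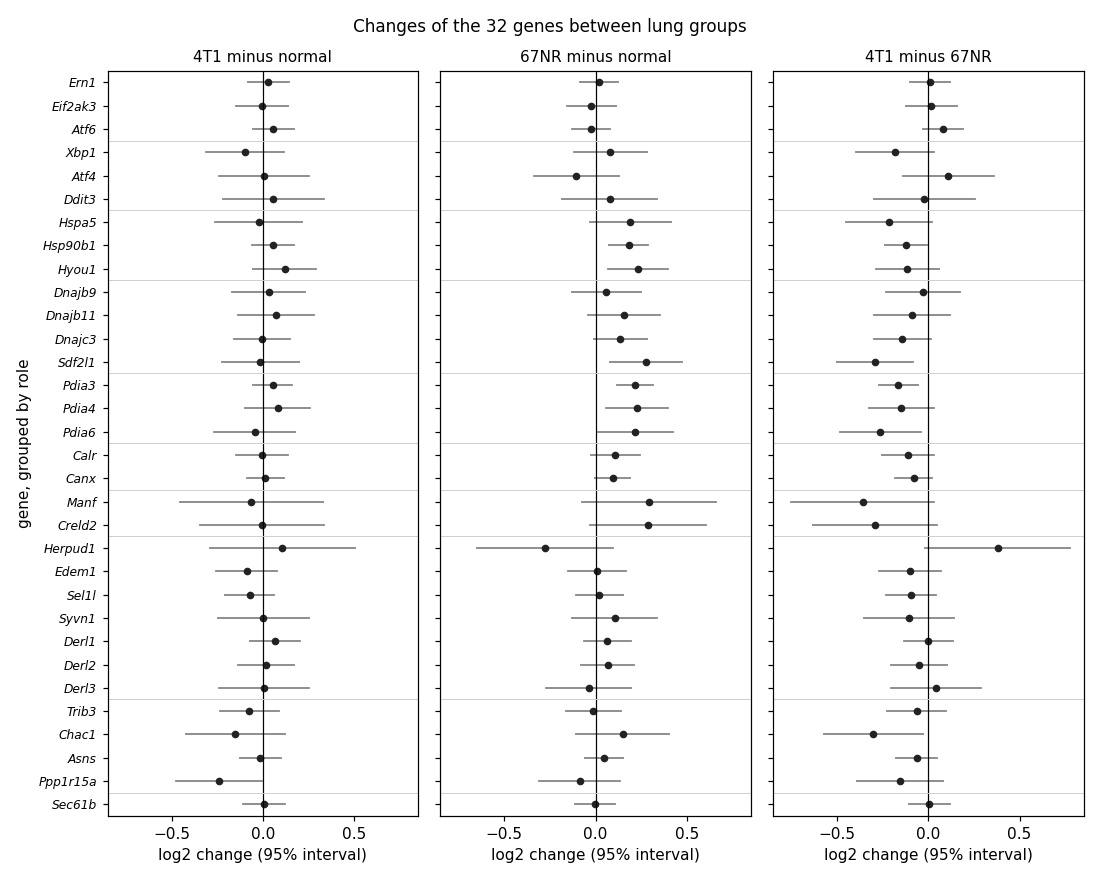
Log2 change of each of the 32 genes in each comparison, as the point with its 95% interval from the limma fit. Rows are grouped by role. In 4T1 minus normal most points lie near 0, while in 67NR minus normal the chaperones, isomerases, Manf and Creld2 lie to the right and Herpud1 to the left, and the direct comparison mirrors this.

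In 4T1 lungs the same genes lay close to normal. By limma 0 of 32 passed, where 0.412% of all genes tested did, and the smallest adjusted p of a member was 0.747. At an unadjusted p under 0.05, 0 were higher (3.58% of all genes) and 1, Ppp1r15a, was lower (2.98% of all genes). Differences were positive for 17 genes and negative for 15 (13 and 19 after quantile normalization), with a median of 0.0039 against -0.00077 over all genes, and 28 of the 32 were smaller than 0.1 in size. The 95% intervals of the 32 genes reached from -0.47 for Ppp1r15a to 0.50 for Herpud1, with a median reach of 0.18 to each side. These intervals are not adjusted for the number of genes, so a typical member would need a larger difference than this to pass.

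Ppp1r15a had levels of 9.66, 9.67, 9.51 and 9.87 in 4T1 lungs and of 10.13, 10.02, 10.02, 9.72 and 9.70 in normal lungs. The groups overlapped, since normal replicates 4 and 5 lay among the 4T1 arrays, and the mean difference was -0.24 (SE 0.11, limma adjusted p = 0.747). In 67NR lungs it stood at 9.71, 9.82, 9.62, 9.997 and 10.02. The immediate early genes, a list that responds to handling and to acute stimuli, stood at 0.30, 0.14, 0.00069, -0.23 and -0.21 in the normal arrays and between -0.40 and -0.14 in 4T1 arrays, as means of 12 tested genes of 14 listed. Their part in the values of Ppp1r15a was not tested.

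Chac1 stood at 7.43, 7.33, 7.29 and 7.55 in 4T1 lungs, against 7.61, 7.54, 7.53, 7.63 and 7.46 in normal lungs and 7.46, 7.81, 7.28, 8.07 and 7.89 in 67NR lungs. Its 4T1 difference from normal was -0.15 (SE 0.13, limma adjusted p = 0.954). All 4 targets of PERK and ATF4 among the 32 had negative values in this comparison, Trib3 at -0.074 and Asns at -0.015. A wider list of PERK and ATF4 genes outside the 32 was divided. Of its 24 tested genes, 13 had positive and 11 negative differences, with a median of 0.0080. Sel1l, the adaptor that joins Syvn1 to its substrates, had 4T1 levels of 10.55, 10.52, 10.47 and 10.57 and normal levels of 10.64, 10.59, 10.62, 10.57 and 10.58. Its 4T1 arrays all lay under every normal array, although replicate 4 of both groups was equal once rounded, and the mean difference was -0.073 (SE 0.063, adjusted p = 0.954). Among the 32 this was so for Sel1l alone, against 1.32% of all genes, and 0 lay wholly above, against 1.4%. In 67NR lungs Sel1l spread over both sides, at 10.51, 10.81, 10.45, 10.69 and 10.65.

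The chaperones and isomerases of 4T1 lungs showed small values in both directions. Hyou1 was the highest at 0.12 (SE 0.081, limma adjusted p = 0.906), followed by Pdia4 at 0.080 and Dnajb11 at 0.070. Hsp90b1 and Pdia3 had values of 0.057 and 0.053, and Dnajb9 and Canx of 0.031 and 0.014. Negative values were those of Pdia6 at -0.046, Hspa5 at -0.024, Sdf2l1 at -0.014, Dnajc3 at -0.0041 and Calr at -0.0037. Manf and Creld2 stood at -0.064 and -0.0046.

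For the sensors Ern1, Eif2ak3 and Atf6 the 4T1 values were 0.030, -0.0060 and 0.057, and for Xbp1, Atf4 and Ddit3 they were -0.099, 0.0055 and 0.057. In the degradation group Herpud1 had 0.11, Derl1 0.066, Derl2 0.017, Derl3 0.0063, Syvn1 0.0023 and Edem1 -0.089, and Sec61b had 0.0057. Neutrophil genes in the same 4T1 arrays were higher, with 8 of the 10 tested of 12 listed past the threshold and list means of 1.58 to 2.15 above normal, while the mean of the 32 genes lay between -0.055 and 0.030.

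Set directly against 67NR lungs, in a comparison that shares its arrays with both comparisons above, 4T1 lungs had negative differences in the chaperones and isomerases. By limma 0 of 32 passed, where 0.76% of all genes did, and the smallest adjusted p of a member was 0.162. At an unadjusted p under 0.05, 5 were lower in 4T1 lungs (Pdia3, Sdf2l1, Pdia6, Chac1 and Hsp90b1), where 6.22% of all genes were, and 0 were higher, where 6.22% were. Differences were negative for 24 genes and positive for 8, with a median of -0.096 against -0.00079 over all genes.

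Pdia3 was lower in 4T1 than in 67NR lungs by a mean of 0.16 on the log2 scale (difference -0.16, SE 0.049, limma adjusted p = 0.162). The levels given above met at 1 array, with 4T1 replicate 1 at 11.86 and 67NR replicate 3 at 11.85. Sdf2l1 had a difference of -0.29 (SE 0.097, adjusted p = 0.211), Pdia6 one of -0.26 (SE 0.10, adjusted p = 0.318), Chac1 one of -0.30 (SE 0.13, adjusted p = 0.349) and Hsp90b1 one of -0.12 (SE 0.053, adjusted p = 0.361). Overlap between the groups remained for each of the 32 genes, in that 0 lay wholly above and 0 wholly below, against 2.35% and 2.22% of all genes.

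The widest differences between the tumour groups were not those with the smallest p-values. Herpud1 was 0.38 higher in 4T1 lungs (SE 0.18, limma adjusted p = 0.424), with 11.82, 12.17, 11.58 and 11.96 in that group. Manf had a difference of -0.36 (SE 0.18, adjusted p = 0.450), and its 4T1 levels of 10.86, 11.05, 10.71 and 11.05 lay among the lower 67NR arrays. Creld2, Hspa5 and Xbp1 had differences of -0.29, -0.21 and -0.18. Those of the sensors were 0.011 for Ern1, 0.017 for Eif2ak3 and 0.082 for Atf6.

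**Figure D3:**
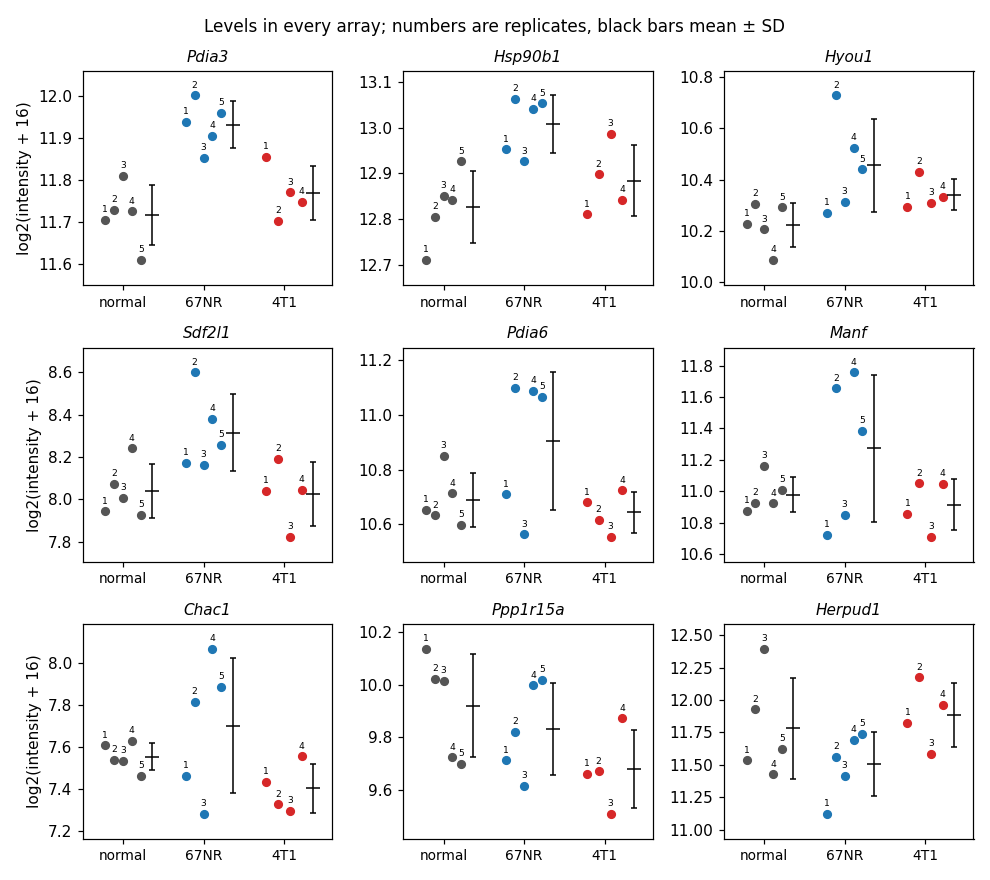
Log2(intensity + 16) of 9 genes in every array, by group, with replicate numbers beside the points and the mean ± SD as black bars. Pdia3 has all 67NR arrays above the normal arrays, Pdia6, Manf and Chac1 have 67NR replicates 2, 4 and 5 apart from replicates 1 and 3, and Ppp1r15a and Herpud1 overlap between groups.

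The 67NR lungs differed among themselves by more than their mean differed from normal, with a mean of the 32 genes of 0.086 ± 0.15 (SD, n = 5). As means of the 32 genes relative to normal, 67NR replicates 1 to 5 stood at -0.071, 0.21, -0.078, 0.21 and 0.15, normal replicates 1 to 5 at -0.042, 0.0068, 0.070, -0.013 and -0.021, and 4T1 replicates 1 to 4 at -0.020, 0.030, -0.055 and 0.028. Replicates 2, 4 and 5 of 67NR lay above all other arrays, and replicates 1 and 3 below all of them.

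The same arrays stood out gene by gene. In 67NR replicates 2, 4 and 5, 22, 23 and 19 of the 32 genes lay above every normal array, where 21.2%, 23.8% and 22.5% of all tested genes did. In replicates 1 and 3, 2 and 4 of the 32 did, where 18.6% and 13.01% of all genes did, and 12 and 15 lay below every normal array, where 21.0% and 19.5% did. The 4T1 replicates 1 to 4 had 3, 3, 6 and 3 above, where 15.9%, 14.97%, 20.1% and 14.8% of all genes were. They had 8, 4, 10 and 1 below, where 13.95%, 21.0%, 17.3% and 15.6% were, so the counts above were under the background and those below lay on both sides of it. Among the 5 67NR arrays, replicate 3 was the lowest for 19 of the 32 genes and replicate 1 for 12, and replicates 2, 4 and 5 were the highest for 14, 12 and 5. For all tested genes the share for which a given 67NR array was lowest ran from 18.1% to 21.8%. Replicates 2, 4 and 5 were highest for 19.3%, 25.0% and 23.4% of all genes, so the count for replicate 5 was under its background.

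The median SD of the 32 genes was 0.164 in 67NR lungs, against 0.111 over all tested genes in that group. In normal lungs the values were 0.0918 and 0.10, and in 4T1 lungs 0.0871 and 0.0930. Manf had the widest spread in 67NR lungs and Herpud1 in both other groups.

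Leaving out single arrays changed how many genes came near the threshold. Without 67NR replicate 1 or 3, the members higher than normal at an unadjusted p under 0.05 numbered 11 or 13 in place of 6, where 4.22% and 5.51% of all genes were higher in place of 4.62%. Without 67NR replicate 2, 4 or 5 that count was 5, 6 and 5, where 4.44%, 3.56% and 4.74% of all genes were higher. It ran from 5 to 13 over all arrays left out singly. Without 67NR replicate 1 or 3, the members lower in 4T1 than in 67NR lungs numbered 11 or 12 in place of 5. There 5.36% and 6.65% of all genes were lower in place of 6.22%. Without 67NR replicate 2, 4 or 5 the latter count was 2, where 5.6%, 5.31% and 6.64% of all genes were lower, which is near the background. Without 4T1 replicate 2 or 3 it was 3, where 4.2% and 6.4% were. With 67NR replicates 1 and 3 left out together, as the arrays lowest in clock output in an earlier analysis of these data, 0 of the 32 passed in 4T1 against normal lungs, where 0.357% of all genes did. In that setting 1 gene passed in 67NR against normal lungs, where 0.101% of all genes did. It was Pdia6, with a log2 change of 0.40 (limma adjusted p = 0.0427; range over 25 alternatives 0.0427 to 0.920). Likewise 3 genes passed in 4T1 against 67NR lungs, where 0.44% of all genes did. They were Pdia6 at -0.44 (adjusted p = 0.00885; range 0.00885 to 0.724), Chac1 at -0.52 (adjusted p = 0.00904; range over 24 alternatives 0.00904 to 0.579) and Manf at -0.68 (adjusted p = 0.0136; range 0.0136 to 0.643). These arrays also had the lowest mean of the 32 genes, so leaving them out acts on the outcome itself. With probe sets averaged per gene in place of the brightest one, Hsp90b1 alone passed in 4T1 against 67NR lungs, at -0.22 (adjusted p = 0.0291; range over 25 alternatives 0.0291 to 0.557), where 0.788% of all genes did.

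Clock output genes shared their lowest arrays, but not their highest, with the 32 genes. As means of 8 genes (Ciart, Dbp, Hlf, Nr1d1, Nr1d2, Per2, Per3 and Tef, chosen on these data), 67NR replicates 1 to 5 stood at -2.54, -0.61, -1.94, -0.74 and -0.072 relative to normal, and all other arrays between -0.39 and 0.29. The 2 arrays lowest for the 32 genes were also lowest for clock output. Replicates 2 and 4, however, were highest for the 32 genes and lower than all normal arrays in clock output. The part of the clock genes in the result was not tested.

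Heat shock genes, listed as cytosolic but including the mitochondrial Hspd1 and Hspe1, did not sort the 67NR arrays in this way. Their 10 genes stood at -0.45, 0.33, 0.26, 0.50 and -0.077 in 67NR replicates 1 to 5, within the -0.59 to 0.65 of the normal arrays. Plasma cell markers, of which 7 were tested of 11 listed, stood at -0.25 to 0.16 in 67NR, -0.35 to 0.25 in normal and -0.24 to 0.26 in 4T1 arrays. Between 67NR and normal lungs 4 of the 7 plasma cell genes had positive and 3 negative differences, with a median of 0.11. Endothelial and alveolar type 2 markers stood at -0.0996 to 0.13 and -0.14 to 0.041 in 67NR arrays, against -0.12 to 0.080 and -0.081 to 0.062 in normal arrays.

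Of the marker lists of cell types and tissues, 4 split the 67NR arrays in the opposite direction to the 32 genes and are given by array. Adipose markers, 3 tested of 6 listed, stood at 0.34, -0.34, 0.53, -0.71 and -0.57 in 67NR replicates 1 to 5, against -0.47 to 0.44 in normal and -0.13 to 1.22 in 4T1 arrays. Club cell markers, 5 of 5, stood at 0.14, -0.050, 0.087, -0.41 and -0.19, against -0.26 to 0.26 in normal arrays and 0.077 to 0.21 in 4T1 arrays. Fibroblast markers, 8 of 8, stood at 0.30, 0.11, 0.16, -0.11 and -0.031, against -0.14 to 0.17 and -0.086 to 0.12. Heart and skeletal muscle markers, 6 of 8, stood at 0.15, -0.17, 0.74, 0.071 and -0.43, against -0.38 to 0.42 and 0.063 to 0.51. In each of these 4 lists replicates 1 and 3 were the highest 67NR arrays, as they were the lowest for the 32 genes. Among lists not given by array, alveolar type 1 markers stood at -0.0017 to 0.063 in 67NR arrays and alveolar macrophage markers at -0.32 to 0.14. B cell markers stood there at -0.17 to 0.33 and neutrophil markers at -0.12 to 0.43. In normal arrays alveolar type 1 markers ran from -0.080 to 0.098 and alveolar macrophage markers from -0.16 to 0.13. B cell markers ran there from -0.53 to 0.48 and neutrophil markers from -0.29 to 0.31. The Gapdh 3' over 5' ratios of 67NR replicates 1 to 5 were -0.53, -0.36, -0.58, -0.52 and -0.48 on the log2 scale, lowest in replicates 3 and 1 and highest in replicate 2, with replicate 4 close to replicate 1. By limma 0 genes of these cell type and tissue lists passed in 67NR against normal lungs. The part of these cell types and tissues and of RNA integrity in the result was not tested.

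**Figure D4:**
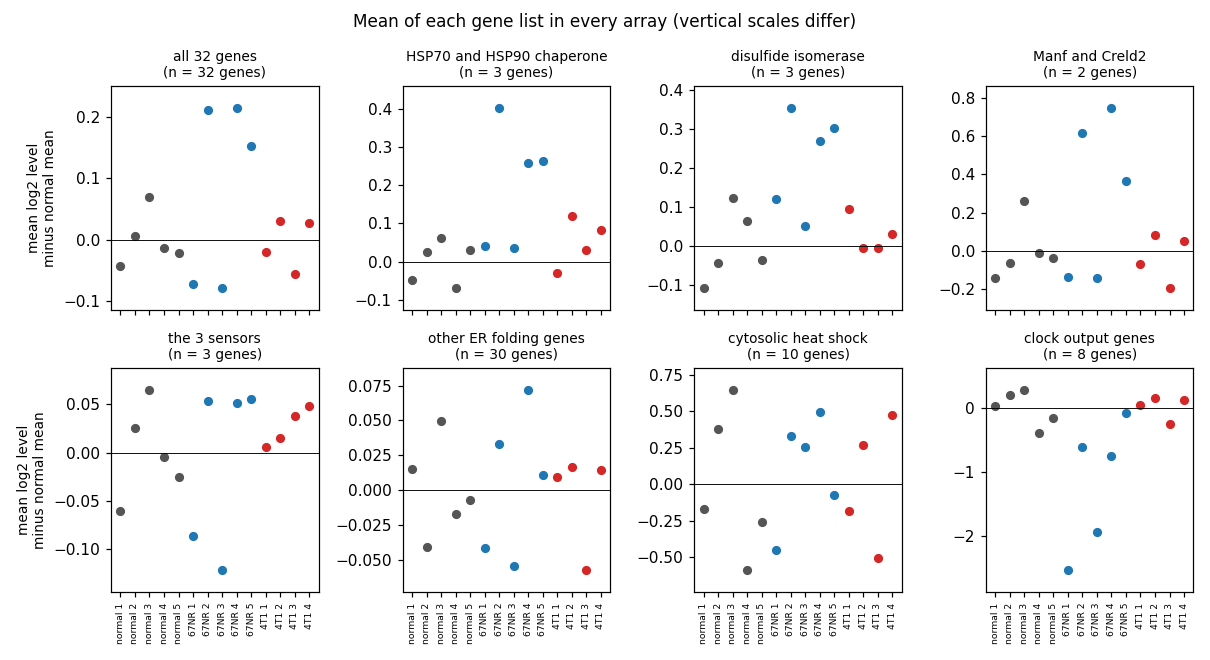
Mean log2 level of a gene list relative to the mean of the normal arrays, in each of the 14 arrays (grey normal, blue 67NR, red 4T1), with vertical scales that differ between panels. In the panels of all 32 genes, chaperones, isomerases and Manf with Creld2, 67NR replicates 2, 4 and 5 lie highest, and in the clock output panel 67NR replicates 1 and 3 lie lowest.

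Other genes of the ER and of the stress response were read from lists naming 120 genes. The array held 113 of them, and 109 passed the level filter. None passed in limma, with 0 calls in each of the 3 comparisons. Of all genes tested 0.412% passed in 4T1 against normal, 0% in 67NR against normal and 0.76% in 4T1 against 67NR lungs. Between 67NR and normal lungs 3 of the 109 were higher and 4 lower at an unadjusted p under 0.05, where 4.62% and 4.52% of all genes were. There 56 differences were positive and 53 negative, and the median was 0.00033. Other ER folding genes had a median of 0.0088 over 30 tested, other degradation genes of -0.00028 over 16, other translocation genes of 0.018 over 25, other PERK and ATF4 genes of -0.031 over 24 and other transducers of 0.023 over 14. In 4T1 against normal lungs 0 of the 109 were higher and 1 lower, where 3.58% and 2.98% of all genes were, with a median of -0.0023. In 4T1 against 67NR lungs 4 were higher and 8 lower, where 6.22% of all genes were in each direction, with a median of -0.015.

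The genes of these lists with the smallest p-values pointed both ways. Nupr1, a stress-induced chromatin protein, had a log2 level of 10.50 ± 0.23 (SD, n = 5) in 67NR lungs against 10.07 ± 0.22 (SD, n = 5) in normal lungs, a difference of 0.44 (SE 0.11, limma adjusted p = 0.300). Its highest 67NR array was replicate 1, at 10.85, unlike those of the chaperones. Erlec1, an ER lectin of the degradation pathway, and Fkbp11, an ER prolyl isomerase, had differences of -0.18 and -0.33 (adjusted p = 0.300 and 0.350). In 4T1 against normal lungs these genes were Shmt2, Eif4ebp1 and Atf3, the last also an immediate early gene, with differences of -0.14, 0.12 and -0.37 (lowest adjusted p = 0.569). In 4T1 against 67NR lungs they were Nupr1, Ubxn4 and the cargo receptor Lman1, with differences of -0.40, -0.25 and -0.12 (lowest adjusted p = 0.162).

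Further probe sets of the 32 genes gave a partial check of single values. Of 75 probe sets in all, 43 were not the brightest of their gene, and 31 of those lay above the level filter. Of the 31, 27 had the same sign as the brightest probe set between 67NR and normal lungs, 23 between 4T1 and 67NR lungs and 14 between 4T1 and normal lungs. Between 67NR and normal lungs the second probe set of Hsp90b1 had a difference of 0.16, that of Herpud1 -0.21, that of Hyou1 above the filter 0.14 and that of Pdia3 0.11. Hspa5 was divided, with 0.32 and -0.12 for its further probe sets. Dim further probe sets of Pdia4 and Pdia6, under the filter, had -0.27 and -0.12, opposite in sign to the brightest. With probe sets averaged per gene the difference of Pdia6 was 0.046 in place of 0.22, and that of Pdia4 was -0.020 in place of 0.23. Between 4T1 and normal lungs, further probe sets of Hsp90b1 and Hyou1 above the filter had -0.16 and -0.039. Their brightest probe sets had 0.057 and 0.12 there.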

How the data were processed

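Lung RNA was measured on 14 arrays, from 3 µg of RNA each per the labels' protocols. The authors deposited linear probe set intensities, 1 value for each of 45101 probe sets. The summary and scaling method was not given in the sources used here. Array medians were nearly equal, no detection calls were used, and the number of arrays limits the precision.

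Gene names came from the 2016 platform annotation, in which 34958 probe sets carried 1 symbol. All 75 member probe sets matched RefSeq by Entrez identifier, with 0 symbols changed. Values were taken as log2(intensity + 16), so fold changes understate those of dim genes. All 14 arrays entered 1 linear model of the 3 group means (limma 3.58.1, R 4.3.3, 11 residual degrees of freedom), two-sided, and tested on simulated data. The members, roles and lists were chosen with earlier results of these data known. All members are named. Those given by array have 1 of the 4 smallest p-values in a comparison, or groups that do not overlap, with Manf, Creld2 and Herpud1 added after their values were seen. Of the other pathway lists the 3 smallest p-values per comparison are named. Promoter sequences are RefSeq's (GRCm38.p6), with the array's own build not given in the sources used here. Replicate numbers were not used to pair samples in the main model, because it is unknown what samples of equal number have in common. Correlations between same-numbered arrays, from -0.34 to 0.22, do not settle whether they are paired.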

Additional observations from a re-analysis of the deposited data

Results flagged for a closer look

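Dnajb11 in normal replicate 5, at a log2 level of 9.58, lay apart from the other normal arrays, which ran from 9.68 to 9.72. The distance to the nearest array was 71.0% of the range of the group. This was 1 of 99 groups of arrays examined for the 32 genes and their mean, where chance marks about 1 in 20.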

How the results depend on the processing

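Each comparison was repeated under 25 alternatives. At least 1 of the 32 genes was called under 0 of them in 4T1 against normal, 1 in 67NR against normal and 2 in 4T1 against 67NR lungs. With 67NR replicates 1 and 3 left out together, 1 gene was called in 67NR against normal lungs, where 0.101% of all genes passed. The median log2 difference there was 0.20. In 4T1 against 67NR lungs 3 genes were called in that setting, where 0.44% of all genes passed. Those arrays had the lowest mean of the 32 genes, so leaving them out acts on the outcome itself. With probe sets averaged per gene 1 gene was called in 4T1 against 67NR lungs, Hsp90b1 at -0.22 (limma adjusted p = 0.0291; range over 25 alternatives 0.0291 to 0.557), where 0.788% of all genes passed. Leaving out 1 array at a time, the median ran from -0.015 to 0.017 in 4T1 against normal, from 0.032 to 0.13 in 67NR against normal and from -0.14 to -0.057 in 4T1 against 67NR lungs. Under 1 or more alternatives 19, 11 and 9 genes took the other sign in these comparisons, all with values of at most 0.089, 0.23 and 0.15 in size, the second being Pdia4 with the mean of its probe sets. The members lower in 4T1 than in 67NR lungs at an unadjusted p under 0.05, 5 in all, numbered 8 after quantile normalization (6.4% of all genes) and 3 with array weights (7.42%) or with the level filter at the upper 40% (6.95%), where 27 of the 32 were tested. With the replicate number as a block, 0, 0 and 0 genes were called, with medians of 0.015, 0.080 and -0.097. Same-numbered arrays of different groups correlated between -0.34 and 0.22, with 3 of 13 pairs over 0.1. The labels do not say what the numbers share, and these values cannot exclude a shared batch or collection time.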

Other observations

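Herpud1, chosen here after its values were seen, and the 10 heat shock genes shared some of their highest and lowest arrays. In normal lungs Herpud1 was highest in replicate 3 (12.39) and lowest in replicate 4 (11.43), and the heat shock mean was highest in replicate 3 (0.65) and lowest in replicate 4 (-0.59). In 4T1 lungs it was lowest in replicate 3 (11.58), as was the heat shock mean (-0.51), and in 67NR lungs both were lowest in replicate 1 (11.12 and -0.45). Their highest arrays differed in both tumour groups. These were replicate 5 for Herpud1 (11.74) and replicate 4 for the heat shock mean (0.50) in 67NR lungs, and replicate 2 (12.17) and replicate 4 (0.47) in 4T1 lungs. With 4 or 5 arrays per group no relation across samples was tested.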
